A study of Rattus norvegicus with 6 samples.

Results

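Mast cell proteases and receptors were measured in the jejunum of rats stressed by heat and shaking on 3 days (S3d) and of control rats. The members are the listed genes Mcpt1, Mcpt2, Mcpt4, Mcpt8, Mcpt9, Mcpt10, Cpa3, Tpsb2, Fcer1a and Kit, and their probes were found through the RefSeq accession that the array design gives for each probe. These 10 names led to 8 of the 41012 probes on the array, 1 probe for each of 8 of the 13837 named genes, and 7 of the 8 were bright enough to be tested. Mcpt10 had no probe matched here. The names Mcpt1 and Mcpt2 led to 1 shared probe, since the RefSeq table used here gives the symbol Mcpt1, with the synonyms rMCP-1 and rMCP-2, to the accession of that probe. It is called the Mcpt1 probe below, and it was put in neither the mucosal nor the connective tissue type, because the table does not settle which of the 2 proteases it measures.

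The animals of both groups were male Sprague-Dawley rats of 6 weeks and 200 ± 20 g. The S3d rats spent 2 h per day on 3 days at 35°C with shaking at 0.1 g, and the control rats stayed at 25°C without shaking. Each sample was RNA pooled from 3 rats according to the labels, which give 10 rats per group, whereas the study's text gives another number. Each group had 3 arrays, with 1 sample on each 1-colour Agilent array, and the p-values measure the spread between these 3 pools.

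Mast cells are resident immune cells that store proteases in granules and release them when antigen crosslinks IgE on their surface. In rats, mucosal mast cells lie in the gut lining and are known for the chymase rMCP-2, which loosens the epithelial barrier, whereas connective tissue mast cells lie in the submucosa, skin and serosa and are known for rMCP-1, carboxypeptidase A and tryptase. Both types depend on the growth factor receptor Kit and carry the high-affinity IgE receptor. In bulk tissue, fewer cells of a type and less RNA per cell cannot be told apart.

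Signals are given as the log2 processed signal of a probe minus the 75th percentile of its array, so that 0 is the brightness of the 75th percentile. The 75th percentile itself was 414.8 to 430.0 on the arrays labelled control and 1457.7 to 1558.3 on those labelled S3d, and no spot was saturated. The 3 control arrays shared 1 slide and the 3 S3d arrays another, so that an effect of the slide or of its scan and an effect of the stress cannot be told apart. The villus genes that mark the labelled tissue were bright on all arrays, for example Fabp1, the fatty acid binding protein of enterocytes, at 9.87 to 9.95 in control and 8.23 to 8.31 in S3d. The array labelled S3d 1 stood apart. On it 17 probes of 16 pancreatic digestive enzyme genes lay between 5.56 and 8.91, against medians of -4.64 to -4.04 on the other 5 arrays, so that a named gene whose call changes without that array is given both ways. This list was chosen after the values were seen.

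The direction of every difference rests on the labels of the scanner files. The authors also deposited a table of normalized values, and each of its 6 columns matched a scanner file that carries the opposite group label and an equal replicate number (rank correlation 0.99999 to 1.0 over probes, against 0.94134 to 0.94843 with its own sample's file). The 2 sources therefore carry opposite group labels, and no sample was reassigned. The direction by the scanner files' labels also opposes the one the study gives from its RT-PCR, a separate assay, in which stress raised Lcn2, Zbtb16, Atf6, Dap, Casp12, Casp8, Casp9 and Atf4 and lowered Mtor and Herpud1. By the scanner files' labels all 8 of the former were lower on the S3d arrays, from -0.17 for Casp9 to -2.69 for Lcn2, and Mtor was higher by 1.24, while Herpud1 was at -0.32 and turned to 0.08 under quantile normalization. Casp9 was called with all arrays (adjusted p = 0.042, limma) but not without S3d 1 (-0.19, adjusted p = 0.054, limma). Under the deposited table's labels all 10 genes ran the same way as in RT-PCR, though Herpud1, at -0.08, was not called (adjusted p = 0.45, limma). These values bear on which labels are right, and if the table's are, higher and lower change places in every comparison below. Every difference below is the S3d mean minus the control mean under the scanner files' labels, and under the deposited table's labels each of the 3 members called has the opposite sign.

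Of the 7 tested mast cell genes, 2 were called higher on the arrays labelled S3d at an adjusted p under 0.05 (limma with Benjamini-Hochberg adjustment over all 31367 tested probes), namely Cpa3 and Tpsb2, and 1 was called lower, namely Kit. Tpsb2 entered the test through the S3d arrays alone, and so had to be higher there. These counts have to be read against the whole array. Of all tested probes 39.5% were called higher and 34.5% lower, or 74.0% in either direction, so 3 calls among 7 genes are fewer than the background share. Of the called probes 53.4% were higher, against 42.8% with each array centred on its median and 98.1% without scaling between arrays, where the median of all tested probes rose to 1.93 and a difference is read relative to it. With a fold change of at least 1.5 required as well, Cpa3 and Tpsb2 remained, against 52.5% of all tested probes, and Kit fell short of it at 1.46-fold. For the same 3 genes no S3d value fell within the control range or the reverse, as for 78.9% of the tested probes measured on all arrays. Mcpt1, Mcpt8, Mcpt9 and Fcer1a overlapped between the groups and were not called, and Mcpt4 was too dim to test.

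**Figure D1:**
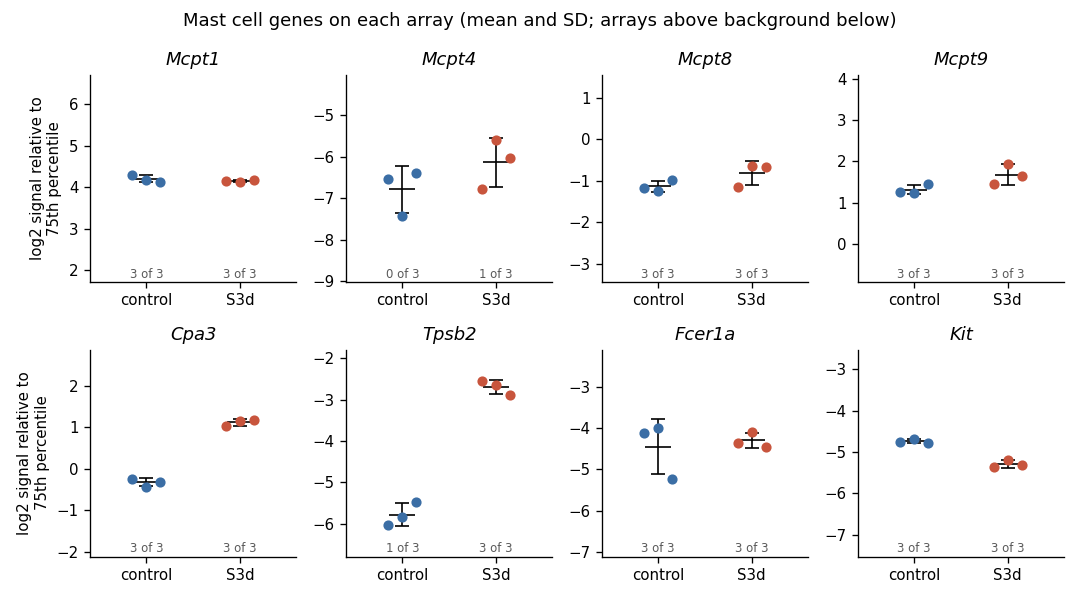
Log2 signal relative to the 75th percentile of the array (vertical axis, all panels spanning 5 log2 units) for the 8 probes on the 3 control arrays and the 3 S3d arrays, by the labels of the scanner files. Points are single arrays, bars the mean and SD, and the small text counts the arrays on which the probe was well above background. The groups are apart for Cpa3, Tpsb2 and Kit and overlap for the other 5 probes.

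Cpa3 encodes carboxypeptidase A3, a granule enzyme that trims amino acids from the end of peptides. Its signal was -0.24, -0.43 and -0.31 on control arrays 1, 2 and 3 and 1.03, 1.15 and 1.19 on S3d arrays 1, 2 and 3. All S3d arrays were above all control arrays. The difference was 1.45 on the log2 scale, or 2.73-fold (standard error 0.081, adjusted p = 2.9e-05, limma, n = 3 per group). It was 1.49 without the array labelled S3d 1.

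Tpsb2 encodes a tryptase, a serine protease that cuts after basic residues and is stored as a tetramer on heparin. Its signal was -6.02, -5.84 and -5.47 on the control arrays and -2.56, -2.64 and -2.89 on the S3d arrays. The control values sat near the floor of the array, and the probe was well above background on 1 of 3 control arrays but on 3 of 3 S3d arrays. The difference was 3.08, or 8.47-fold (standard error 0.164, adjusted p = 2.5e-05, limma, n = 3 per group). This size rests on control values near the floor, and the probe entered the test through the S3d arrays alone. With each control value set no lower than the dimmest signal well above background on its array, this scaling gave at least 7.59-fold. Normexp background correction gave 0.92 on the log2 scale, still called higher. The related tryptase gene Tpsab1 moved differently on its own probe, with -1.11, -1.19 and -1.10 in control and -1.19, -1.43 and -1.47 in S3d, where the groups overlapped (difference -0.23, adjusted p = 0.063, limma). It was called lower without S3d 1 (-0.31, adjusted p = 0.011), under quantile normalization (-0.30, adjusted p = 0.027), under median centring (-0.43, adjusted p = 0.0069) and with normexp (-0.24, adjusted p = 0.02). Tpsg1, the membrane-anchored tryptase gamma, was at 0.56 ± 0.101 (SD, n = 3) in control and 0.61 ± 0.163 (SD, n = 3) in S3d (adjusted p = 0.66, limma). Tryptase genes are close relatives, and how far their probes share RNA was not tested.

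The sequences just before the starts of these genes are shown because Cpa3 and Tpsb2 were called in the same direction, while the 3 tested protease members on chromosome 15, Mcpt1, Mcpt8 and Mcpt9, were not called. Each run is the 250 bases before the RefSeq start on GRCr8, read 5′ to 3′ on the strand of the gene, and capitals mark GATA matches (the letters GATA with A or T before and A or G after, on either strand), the motif of GATA1 and GATA2, which mast cells use.
Cpa3 (chr2:104673238-104673487, minus strand): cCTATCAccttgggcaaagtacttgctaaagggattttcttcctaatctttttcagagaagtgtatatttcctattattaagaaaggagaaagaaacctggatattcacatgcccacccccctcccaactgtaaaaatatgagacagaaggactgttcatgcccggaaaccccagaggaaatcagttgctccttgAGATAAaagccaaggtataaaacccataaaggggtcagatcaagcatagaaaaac
Tpsb2 (chr10:14886060-14886309, plus strand): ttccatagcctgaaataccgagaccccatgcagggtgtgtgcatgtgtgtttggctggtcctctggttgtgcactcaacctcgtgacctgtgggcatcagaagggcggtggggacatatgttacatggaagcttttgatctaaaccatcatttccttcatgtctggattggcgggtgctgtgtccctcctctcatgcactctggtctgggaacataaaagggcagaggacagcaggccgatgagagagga
Mcpt1 (chr15:33841356-33841605, plus strand): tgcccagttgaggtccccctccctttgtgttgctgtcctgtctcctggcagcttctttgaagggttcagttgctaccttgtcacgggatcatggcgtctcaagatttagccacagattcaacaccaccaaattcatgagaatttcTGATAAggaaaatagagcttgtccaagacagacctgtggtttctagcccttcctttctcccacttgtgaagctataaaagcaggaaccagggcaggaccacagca
Mcpt8 (chr15:33769399-33769648, plus strand): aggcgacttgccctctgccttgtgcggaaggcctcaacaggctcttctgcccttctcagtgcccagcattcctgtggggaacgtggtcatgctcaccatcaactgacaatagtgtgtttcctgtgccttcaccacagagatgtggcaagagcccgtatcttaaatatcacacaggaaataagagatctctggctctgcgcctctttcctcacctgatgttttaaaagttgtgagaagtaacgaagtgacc
Mcpt9 (chr15:33827180-33827429, plus strand): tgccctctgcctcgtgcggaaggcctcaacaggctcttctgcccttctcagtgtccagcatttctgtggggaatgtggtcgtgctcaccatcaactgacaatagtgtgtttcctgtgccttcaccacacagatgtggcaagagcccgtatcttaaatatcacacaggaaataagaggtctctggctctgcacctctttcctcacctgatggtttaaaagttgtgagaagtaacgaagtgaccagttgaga

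Cpa3 held 2 GATA matches, at 249 and 55 bases before the start, and Tpsb2 held 0. Mcpt1 held 1, at 105 bases, and Mcpt8 and Mcpt9 held 0 each. Of 33469 rat promoters of the same length, 27.0% held at least 1 such match. The E-box letters CACGTG or CATGTG, searched on both strands as letters bound by MITF and its relatives, occurred once in Cpa3, at 144 bases, once in Tpsb2, at 209 bases, and once in Fcer1a, which was not called, at 208 bases, and in 17.1% of all promoters. TATAAA on the strand of the gene occurred in Cpa3 at 40, Mcpt1 at 33, Mcpt4 at 50 and Fcer1a at 125 bases before the start, against 8.06% of all promoters. Mcpt4, which was too dim to test, held 2 GATA matches, at 196 and 121 bases. Fcer1a held 1 GATA match at 93 bases, and Kit held none of the 3 motifs. The promoters of Mcpt8 and Mcpt9 were alike, with 233 of 258 aligned positions identical (90.3%), and those of Mcpt1 and Mcpt4 were identical at 73.0% of positions, against 44.9% for Cpa3 and Tpsb2, the pair that was called. These letters are a description of the windows and not evidence of binding.

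Mcpt9 encodes a chymase-like serine protease of the mucosal type. Its signal was 1.26, 1.24 and 1.45 in control and 1.44, 1.94 and 1.64 in S3d. The S3d 1 array fell within the control range, while S3d 2 and S3d 3 lay above it. The difference was 0.36 (standard error 0.142, adjusted p = 0.061, limma, n = 3 per group), which missed the threshold. Mcpt8, its close relative, behaved alike, at -1.18, -1.24 and -0.98 in control and -1.14, -0.64 and -0.66 in S3d. Again S3d 1 lay among the control arrays and the other two above them. Its difference was 0.33 (standard error 0.159, adjusted p = 0.11, limma). Without S3d 1, the array that also carried the pancreatic signal, Mcpt8 was higher by 0.49 (adjusted p = 0.0083) and Mcpt9 by 0.47 (adjusted p = 0.021), so that 4 mast cell genes were called higher instead of 2. With all arrays kept, Mcpt9 was also called under quantile normalization (0.43, adjusted p = 0.046), with normexp (0.33, adjusted p = 0.036) and with an intensity trend (adjusted p = 0.035), whereas median centring gave 0.16 for Mcpt9 and 0.12 for Mcpt8. The part of the pancreatic RNA in this was not tested. Mcpt8l2, another gene of this close group, was at -1.22 ± 0.098 (SD, n = 3) in control and -0.87 ± 0.15 (SD, n = 3) in S3d and was called higher by 0.35 (adjusted p = 0.019, limma), a call lost under median centring (0.15, adjusted p = 0.23) and with normexp (0.15, adjusted p = 0.19). The 3 probes may share RNA of near-identical copies, so their differences are not independent of each other.

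The Mcpt1 probe was bright on every array. It read 4.30, 4.18 and 4.13 in control and 4.16, 4.13 and 4.18 in S3d. The group means were 4.20 ± 0.087 and 4.15 ± 0.024 (SD, n = 3 each), and the groups overlapped. Its difference of -0.05 (standard error 0.069, adjusted p = 0.54, limma) was smaller than the spread between arrays, but the sign and the call depended on the scaling, with 0.35 under quantile normalization, 0.41 with normexp background correction and -0.25 under median centring, each of them called. Bright probes as a whole ran lower on the S3d arrays. In the brightest of 10 equal classes of the tested probes, to which the Mcpt1 probe belongs, the median difference was -0.49, so that this probe lay 0.44 above the median of probes of its brightness. By a rule set on its 6 values, each centred on its own mean, the named genes nearest to it among 11488 were Usp14, Nup50, Apip, Commd2 and Lin7c, with root mean square distances of 0.019 to 0.021 on the log2 scale. Mcpt8 and Mcpt9 lay farther off, at 0.276 and 0.278, and Cpa3 at 0.751.

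Mcpt4, listed as a mucosal protease in the rat, had the dimmest probe of the members. It read -6.54, -7.44 and -6.39 in control and -6.78, -5.60 and -6.02 in S3d, and it was well above background on 0 of 3 control arrays and 1 of 3 S3d arrays. No fold change is given for it. The low values say that the probe was not well above background and not that the gene is silent.

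The brightness of a probe moved with its difference across the whole array. The median difference fell from 1.28 in the dimmest of the 10 classes, through 0.40 in the second and -0.02 in the eighth, to -0.49 in the brightest. Measured against the median of its own class, Tpsb2 lay 2.69 above, Cpa3 1.47 above, Mcpt9 0.52 above and Mcpt8 0.26 above. Kit, in the same class as Tpsb2, stood at -0.95 from its class median, and Fcer1a at -0.25.

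**Figure D2:**
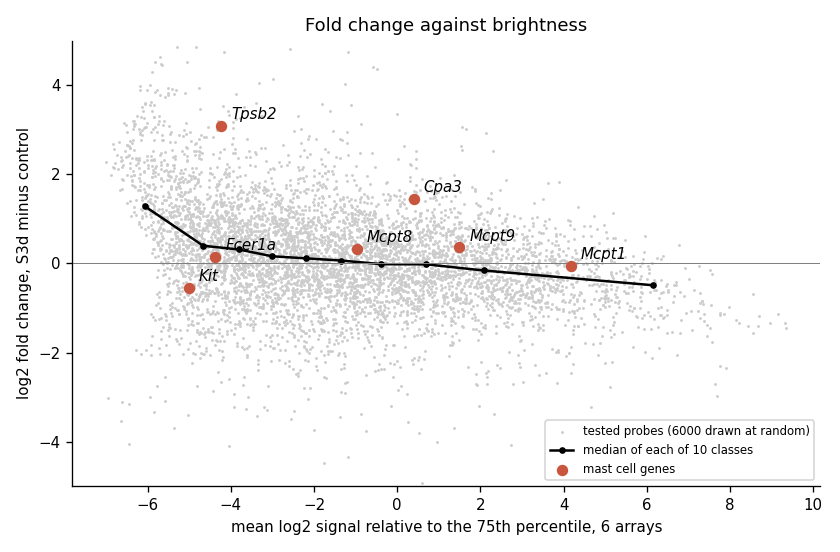
Difference S3d minus control (log2, vertical) against the mean log2 signal over the 6 arrays (horizontal) for a random draw of the tested probes (grey), the medians of 10 brightness classes (black line) and the 7 tested mast cell genes (red). The class medians fall from 1.28 to -0.49, and Tpsb2 and Cpa3 lie 2.69 and 1.47 above the medians of their classes, while Kit lies below its own.

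The rule set mucosal against connective tissue type. On each array, the mean of Mcpt8 and Mcpt9 was set against the mean of Cpa3 and Tpsb2. That cancels a shift equal for all probes of an array, but not one that depends on brightness. This contrast was 3.16, 3.13 and 3.12 on the control arrays and 0.91, 1.40 and 1.34 on the S3d arrays. The control arrays were close to each other at 3.14 ± 0.02 (SD, n = 3), and the S3d arrays lower at 1.22 ± 0.265 (SD, n = 3), a change of -1.92 with no overlap. Tpsb2, a part of the connective tissue mean, entered the test through the S3d arrays alone, so part of this separation was set by the filter. Single tested probes had no overlap between the groups in 78.9% of cases. The control values include Tpsb2 near the floor, and with it set no lower than that floor the change was -1.84. No test is given for a score over chosen genes, and since levels of different probes are not comparable, only the change and not the level of the contrast is read. The change rested on the connective tissue type genes, as the mucosal genes were not called, and it was -1.10 when Tpsb2 was left out, -1.15 when the Mcpt1 probe was counted as connective tissue type, -2.05 when it was counted as mucosal and -0.77 with normexp background correction.

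**Figure D3:**
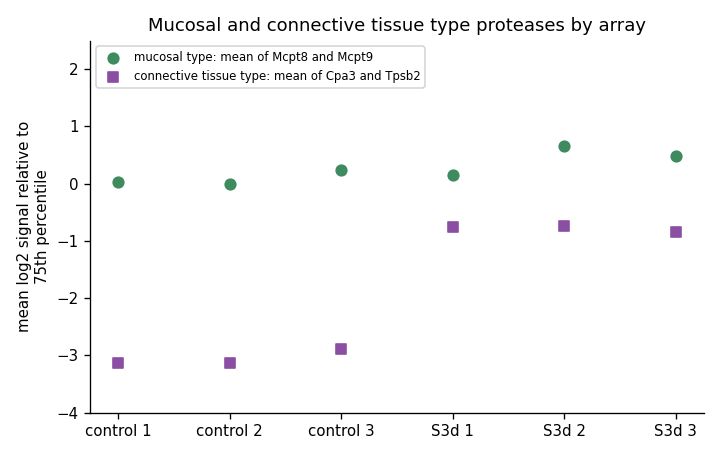
Mean log2 signal relative to the 75th percentile for the mucosal type pair Mcpt8 and Mcpt9 (circles) and the connective tissue type pair Cpa3 and Tpsb2 (squares) on each of the 6 arrays. The squares step up between the groups while the circles overlap, so the distance between them is 3.12 to 3.16 on control arrays and 0.91 to 1.40 on S3d arrays.

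Fcer1a encodes the IgE-binding alpha chain of the high-affinity IgE receptor. It read -4.13, -3.99 and -5.22 in control and -4.35, -4.09 and -4.46 in S3d. Control 3 was the lowest of all 6 arrays, and the groups overlapped (difference 0.15, standard error 0.334, adjusted p = 0.71, limma). The sign turned without control 3, to -0.24, and under quantile normalization (-0.28), median centring (-0.058) and normexp (-0.037). The beta chain gene Ms4a2 was called higher on its brighter probe, at -2.65, -2.89 and -2.94 in control and -1.26, -1.07 and -1.12 in S3d (difference 1.68, adjusted p = 3.9e-05, limma), but its dimmer probe was called lower (-0.55, adjusted p = 0.00054). The 2 probes of this gene therefore disagree. The signalling gamma chain gene Fcer1g, which other myeloid cells also use, was at 3.61, 3.77 and 3.76 in control and 3.97, 3.98 and 4.0 in S3d (difference 0.27, adjusted p = 0.014, limma). It was 0.63 under quantile normalization and 0.71 with normexp, and was not called under median centring (0.07, adjusted p = 0.41).

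Kit encodes the receptor for stem cell factor, on which mast cells depend, and is also made by the interstitial cells of Cajal, the pacemakers of gut muscle. Its signal was -4.75, -4.69 and -4.78 in control and -5.36, -5.19 and -5.32 in S3d. All S3d arrays were below all control arrays, and both groups were tight. The difference was -0.55, a 1.46-fold lower signal (standard error 0.072, adjusted p = 0.00075, limma, n = 3 per group), with -0.51 without S3d 1. It was -1.13 under quantile normalization, -0.31 with normexp background correction, and 1.30 without scaling between arrays, below that setting's median of 1.93. Kitlg, the gene of its ligand stem cell factor, was at 3.18, 3.18 and 3.13 in control and 2.97, 2.83 and 2.85 in S3d, lower by -0.28 (adjusted p = 0.0088, limma) on its brighter probe, a call lost under quantile normalization (-0.05, adjusted p = 0.46) and with normexp (0.005, adjusted p = 0.93). Its dimmer probe gave -0.94 (adjusted p = 0.00046). Of 4 tested genes listed for interstitial cells of Cajal, 2 were called higher and 0 lower, with 1 higher under quantile normalization and with normexp, and 3 without S3d 1. Etv1, a transcription factor of these cells, was higher by 1.09 on the probe that stands for it (adjusted p = 7.5e-05, limma), while its other probes gave 0.34, -0.04 and -0.22. Ano1, their chloride channel, differed by 0.41 (adjusted p = 0.05), was called higher without S3d 1 (0.50, adjusted p = 0.035) and turned to -0.02 under quantile normalization (adjusted p = 0.91). Kcnk3, the lowest of the 4, was at 0.25 (adjusted p = 0.28), with -0.14 under quantile normalization and -0.08 with normexp. The part of these cells in the Kit signal was not tested.

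Cpa3 and Tpsb2 were called higher and Kit lower under most of the processing choices tried. Of 18 alternatives, the direction and call of Cpa3 held in 17, of Kit in 16, and of Tpsb2 in all but 1 of those that could test it. The exceptions were the deposited table, with its opposite labels, for all 3 genes, and the unscaled values for Kit. Tpsb2 entered the test through the S3d arrays alone, so its direction was set by the filter and its holding adds no support. Adjusted p-values ranged from 6.9e-07 to 0.001 for Cpa3, from 8.2e-07 to 0.001 for Tpsb2 and from 1.2e-05 to 0.012 for Kit over these alternatives (limma, or the per-probe analysis of variance for 1 of them). The lowest of each came from the unscaled values, where Kit was reversed. Where Kit was called lower, its lowest was 4.5e-05, under quantile normalization (limma).

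**Figure D4:**
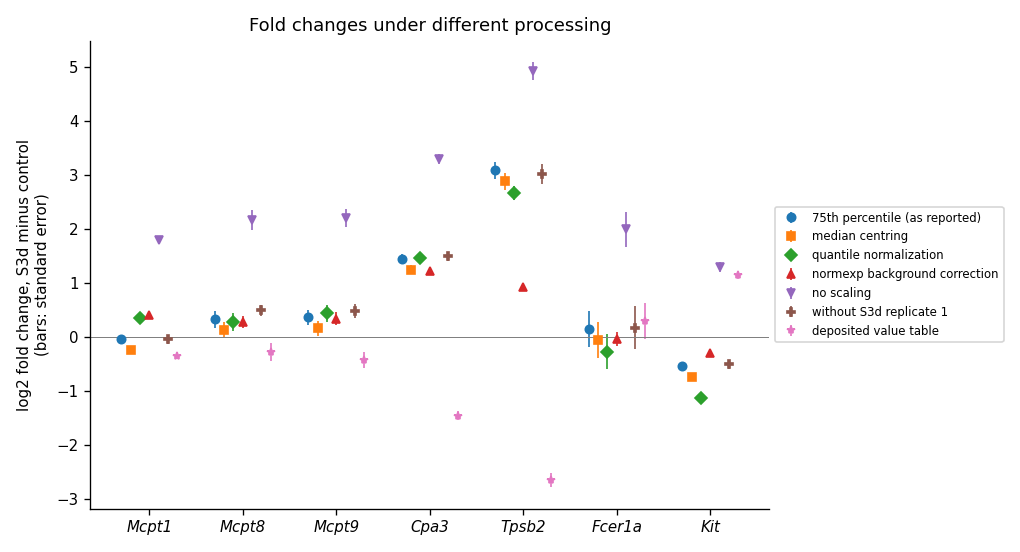
Difference S3d minus control (log2, vertical, with standard error) of the 7 tested genes under 7 ways of processing the arrays, each with its own symbol. Cpa3 and Tpsb2 stay above 0 in the 6 settings built from the scanner files and fall to -1.46 and -2.66 in the deposited table with its own labels.

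The chymase genes lie together on chromosome 15, and their order was read from the RefSeq table. Of 27 genes from Cma1 to Gzmbl3, 11 had a probe and 8 were tested. Cma1, the mast cell chymase gene at one end, was at 0.07, -0.11 and 0.23 in control and 0.65, 0.73 and 0.46 in S3d (difference 0.55, adjusted p = 0.0061, limma), but its second probe did not differ beyond its spread (-0.01, adjusted p = 0.95). Vch, vascular chymase, had a dim probe that was not well above background on any control array and was above it on all 3 S3d arrays, so that it entered the test through the S3d arrays alone. It was at least 1.73-fold higher on this scaling (adjusted p = 0.030, limma). The call was lost under quantile normalization (adjusted p = 0.17), with normexp (0.05 on the log2 scale, adjusted p = 0.66) and without S3d 2 or S3d 3 (adjusted p = 0.078 and 0.083). Gzmf, a granzyme of T cells and the last of these genes with a probe, was at -1.95, -1.47 and -1.58 in control and -3.46, -3.00 and -3.13 in S3d (difference -1.53, adjusted p = 0.00038, limma). With Cma1 called higher, Gzmf lower and Mcpt9 not called, the locus did not move as a whole. Vch and the locus were chosen after earlier results were known.

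**Figure D5:**
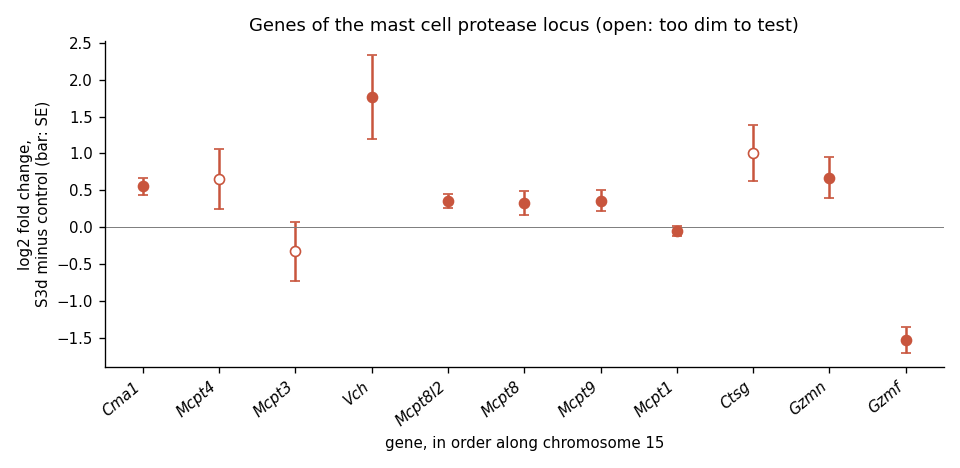
Difference S3d minus control (log2, vertical, bar for the standard error) of the 11 genes with a probe, in their order along chromosome 15 (horizontal, not to scale). Filled points were tested and open ones were too dim. Gzmf lies lowest at -1.53 and the neighbours Mcpt8l2, Mcpt8, Mcpt9 and Mcpt1 lie between -0.05 and 0.36.

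Other genes of mast cell biology were counted from fixed lists. Over 5 lists with 55 tested genes, 20 were called higher (36.4%) and 19 lower (34.5%), against 36.1% and 37.4% of the 11489 named genes tested, so these shares were near the background. The 20 include Il3, Il4, Il13 and Il9r, which entered the test through the S3d arrays alone. Among the relatives of the mast cell proteases, 11 were tested, with 2 higher and 5 lower and a median difference of -0.23, against 0.003 for all named genes. The 2 were Cma1 and Mcpt8l2, and Cma1 alone was called under median centring and with normexp. The highest value was that of Gzmn, a granzyme gene, at 0.67 (adjusted p = 0.07), which was 0.35 without S3d 1 and called higher there (adjusted p = 0.03). The 5 were granzymes, the granule proteases of cytotoxic lymphocytes, with Gzma at -1.07 (adjusted p = 0.001) and Gzmb at -1.19 (adjusted p = 0.00045), and their direction turned without scaling between arrays but stayed below the median of 1.93. Gzmk, at -0.57, lost its call without S3d 1 (-0.46, adjusted p = 0.12). Of 9 tested lymphocyte and macrophage genes, 7 were also called lower, with a summed signal, relative to the 75th percentile, of 31.3 to 38.3 in control and 24.8 to 27.4 in S3d, and 4 were with normexp. They ran from Ptprc, the leukocyte antigen CD45, at -2.64 (adjusted p = 1.8e-05, other probes 0.69 and -0.53) to Csf1r, the macrophage growth factor receptor, at 0.87 (adjusted p = 0.00016).

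Of 10 tested genes for granule matrix, amines and lipid mediators, 2 were higher, 5 lower and 3 not called (median -0.24). Alox5ap, which presents arachidonic acid to the leukotriene-forming enzyme, was higher by 1.29 (adjusted p = 2.6e-05, limma), and Ltc4s, which makes leukotriene C4, was lower by -1.55 (adjusted p = 8.3e-05). Slc18a2, which loads amines into granules, had the lowest value at -1.65 (adjusted p = 2.1e-05), but its dimmer probe gave 0.11. Hdc, the enzyme that makes histamine, differed by 0.43 (adjusted p = 0.12), and Srgn, the core protein that holds granule proteases, by 0.02 (adjusted p = 0.82), with 0.22 under quantile normalization (adjusted p = 0.046), 0.26 with normexp (adjusted p = 0.021) and -0.18 under median centring (adjusted p = 0.057).

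Of 13 tested genes for IgE receptor partners and signalling, 5 were higher and 5 lower (median 0.08), or 3 and 6 under median centring. Lat, an adaptor of IgE receptor and T cell receptor signalling, had the lowest value at -1.06 (adjusted p = 0.0001). The kinase genes Lyn and Syk were lower by -0.76 and -0.66 (adjusted p = 0.00015 and 0.0012), while the second Lyn probe gave 0.05 (adjusted p = 0.74). Of 15 tested genes for growth factors, cytokine receptors and homing, 8 were higher and 3 lower (median 0.56), 6 and 2 under quantile normalization and 6 and 5 under median centring. Among the 8, Il3, Il4, Il13 and Il9r entered the test through the S3d arrays alone, so the filter favoured higher values for them. Il9r had the highest value at 1.93 (adjusted p = 0.041), on a probe well above background on 1 of 3 control arrays, which entered the test through the S3d arrays alone. Its call was lost under quantile normalization (adjusted p = 0.14), median centring (adjusted p = 0.056) and with normexp (0.22, adjusted p = 0.17). Itgae, an integrin chain that holds cells to the epithelium, was higher by 1.32 (adjusted p = 0.00054), and Itga4, an integrin chain of gut homing, had the lowest value at -1.04 (adjusted p = 4.3e-05). Il33, an alarmin that activates mast cells, was higher by 0.84 (adjusted p = 0.0014). Of 6 tested transcription factor genes, 3 were higher and 1 lower, or 1 and 1 under quantile normalization. They ran from Stat5a at -0.38 (adjusted p = 0.0082) to Stat5b at 0.80 (adjusted p = 0.0017). Gata2 was at 0.67 (adjusted p = 0.010), a call lost under quantile normalization (0.35, adjusted p = 0.11) and with normexp (0.10, adjusted p = 0.27). Mitf was too dim to test. Of 7 tested protease inhibitor genes, 2 were higher and 3 lower, from Serpina3n at -1.82 (adjusted p = 0.0036) to Serpinb9 at 1.56 (adjusted p = 0.00023).

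Markers of other cells that carry some of these genes were counted in the same way. Of all named genes tested, 36.1% were called higher and 37.4% lower. Counts near these shares are not read as a change of the cells. Of 8 tested genes of basophils, eosinophils and neutrophils, 4 were called higher and 4 lower, or 2 and 4 with normexp, with a summed signal of 1.22 to 1.79 in control and 0.76 to 0.86 in S3d, relative to the 75th percentile, and the eosinophil peroxidase gene Epx was well above background on 0 of 6 arrays. They ran from S100a9 at -2.29 (adjusted p = 0.00067) to S100a8, its partner in neutrophils, whose probe was well above background on 0 of 3 control arrays and which was at least 2.32-fold higher (adjusted p = 0.0094, not called with normexp at adjusted p = 0.1). S100a8 thus entered the test through the S3d arrays alone. Elane, also counted higher at 1.83, was at -0.008 with normexp (adjusted p = 0.89, limma). Smooth muscle genes, which mark the wall where connective tissue mast cells lie, were called higher in 2 and lower in 3 of 7 cases (1 and 3 under median centring), with a summed signal of 130.0 to 154.9 in control and 117.3 to 138.0 in S3d, so the ranges overlapped. They ran from Mylk at -1.57 (adjusted p = 1.6e-05) to Myh11 at 0.98 (adjusted p = 0.001), whose other probe gave -0.92. Of 12 tested villus enterocyte genes, 10 were lower and 1 higher, with a summed signal of 3892 to 4313 in control and 1734 to 1795 in S3d, but 2 were lower and 4 higher under quantile normalization and with normexp. They ran from Fabp1 at -1.64 (adjusted p = 1.3e-05), which was -0.33 under quantile normalization, to Lct at 0.66 (adjusted p = 0.047), which was not called without S3d 1 (adjusted p = 0.095) or under median centring (0.46, adjusted p = 0.12). Most of the 12 villus genes lay in the brightest of the 10 classes of probes, where the median difference was -0.49 and 15.9% were called higher. Both tested red cell genes were lower, Hbb by -3.76 (adjusted p = 0.00021) and Alas2 by -1.65 (adjusted p = 0.00028). Of 4 tested liver and gastric genes, tissues not sampled, 3 were higher and 1 lower, from Ttr at -0.74 (adjusted p = 0.017) to Atp4b at 2.91 (adjusted p = 9.7e-05), a probe above background on 1 of 3 control arrays. The part of these cells in the mast cell signals was not tested.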

How the data were processed

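Jejunal RNA was measured on 3 arrays per group. The authors deposited the scanner output of Agilent Feature Extraction 10.7.3.1, whose processed signal is an intensity after background subtraction, without scaling from array to array, and a table of log2 values, quantile-normalized and carrying the opposite group labels. Here log2 processed signal was scaled to the 75th percentile of each array. Control spots and outlier-flagged spots were left out, and repeated spots averaged. A probe entered the test where the scanner software called it well above background throughout either group, and groups were compared with limma 3.58.1 (lmFit and eBayes, R 4.3.3), with Benjamini-Hochberg adjustment over all 31367, and called at an adjusted p under 0.05. The probe with the highest mean signal stood for a gene.

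Gene symbols came from matching each probe's accession to the RefSeq table of GRCr8, used for names and gene order only. The 2 slides carried 2 versions of the design annotation, of which the later was used (1774 probes differ, and both versions give 8 member probes). Promoters are RefSeq's on GRCr8, and 8 members matched. All members are named, with the largest and smallest difference of the other lists and genes needed to read a member, and others (Vch, the locus, the RT-PCR genes) were chosen after values were seen. The members and lists were chosen with earlier results of these data known.

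On simulated data for 31137 probes, the test recovered 66% of changes of 1 on the log2 scale and 93% of changes of 2, with 6 false calls. Far fewer probes were changed in the simulation than were called on the arrays, and it held no slide effect. Its rates therefore need not hold for these data. Alternatives were the scaling, normexp with an offset of 50 (on median signals, then quantile normalization), the filter, the outlier spots, the deposited table, a replicate block, an intensity trend, an analysis of variance per probe, the mean over probes, and each array left out. The number of arrays limits the precision.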

Additional observations from a re-analysis of the deposited data

How the results depend on the processing

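The count of mast cell genes called higher was 2 and of those called lower 1. It was 4 higher under quantile normalization and with normexp (Cpa3, Mcpt1, Mcpt9 and Tpsb2), 7 without scaling, and 1 (Cpa3) for probes above background on all 6 arrays, where Tpsb2 was not tested. Under median centring 2 were lower (Kit and Mcpt1), and without scaling 0. In the deposited table, by its own labels, 1 was higher (Kit) and 4 lower. Leaving out each array gave 2 to 4 higher and 1 lower each time, with 4 higher without S3d 1. The mucosal minus connective tissue type change of -1.92 was -1.71 under quantile normalization, -0.77 with normexp, -1.15 with the Mcpt1 probe as connective tissue type, -1.10 without Tpsb2, -1.84 with Tpsb2 no lower than the array floor, and 1.70 in the deposited table, and ranged from -2.01 to -1.77 when arrays were left out. The choices of genes in this contrast were made after seeing the data.

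Mcpt1 reversed under quantile normalization (0.35), normexp (0.41) and without scaling (1.80). Fcer1a reversed under quantile normalization (-0.28), median centring (-0.058), normexp (-0.037) and without control replicate 3 (range over the arrays left out -0.24 to 0.371). Kit reversed without scaling (1.30). The table gave -0.28 for Mcpt8, -0.43 for Mcpt9, -1.46 for Cpa3, -2.66 for Tpsb2 and 1.14 for Kit. Its opposite labels account for these signs, and the cause of the others was not tested.

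Of all called probes 53.4% were higher, against 42.8% under median centring and 98.1% without scaling. With the replicate number as a replicate block, 2 mast cell genes were higher and 1 lower, and 70.8% of all probes were called instead of 74.0%. Arrays sharing a number did not deviate together (correlations 0.02, 0.022 and -0.049), so no pairing by number was seen, though so few arrays cannot exclude it. A fit with slide as a block could not be made, because each slide held 1 group.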
